A study of Mus musculus with 6 samples.

Results

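The genes described here were 10 immediate early transcription factors, chosen by their symbols: *Fos*, *Fosb*, *Fosl1*, *Fosl2*, *Jun*, *Junb*, *Egr1*, *Ier2*, *Klf2* and *Klf4*. All 10 were among the 56980 genes of the deposited count table, and all 10 passed the low-count filter that left 15190 genes for testing. Their RNA was measured by RNA-Seq in BM MSCs, the study's name for its cultured bone marrow cells, with 3 TranspCtrl and 3 TranspExer samples. RNA of leukocyte markers was also present in every sample, as given below, so a level cannot be credited to stromal cells alone. All recipients were female mice that underwent OVX, the surgical removal of the ovaries, at 8 weeks of age and had their gut microbiota depleted with antibiotics, so both groups shared these treatments. They then received FMT for 8 weeks, either from sedentary OVX donors (TranspCtrl) or from OVX donors trained on a treadmill (TranspExer). The marrow of the recipients was flushed and kept in culture for 7 days before RNA was taken, with no sorting step described, and the strain was not given in the sources used here. Nothing said whether a sample was 1 mouse or a pool, so the p-values measure the spread between these samples, which may be partly technical. Values of a group are given in the order of replicates 1, 2 and 3, and the TranspCtrl samples are also called controls. The question was whether the microbiota donor went with a different level of these genes in marrow cells of the recipient.

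Immediate early genes are switched on within minutes of a growth factor, mechanical load or stress, from factors already present in the cell and without new protein synthesis. ERK acts mainly through SRF and its ELK partners on *Fos*, *Egr1* and *Ier2*, JNK and p38 act on *Jun*, and ERK5 acts through MEF2 factors on *Klf2* and *Klf4*. FOS and JUN proteins pair to form AP-1, which in bone is known for its part in osteoclast formation and in the growth of osteoblasts. Because such transcripts are short-lived, a level in cultured cells is that at the moment of lysis.

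The 6 libraries held between 17647638 and 21319166 counts, so that 3 counts equalled at most 0.174 CPM (the counts of a gene relative to the library total, scaled with TMM factors), a floor for counting error only. TranspCtrl replicate 1 stood apart: the mean chi-square per gene against the other controls was 57.4 and 63.4, whereas it was 3.83 between TranspCtrl replicates 2 and 3 and at most 7.995 within the TranspExer group. The 10 genes are therefore also given without that sample where a call changed, and gene lists where a count moved by more than 1.5 times. Those fits keep only TranspCtrl replicates 2 and 3 as controls. The sample was left out because it was known to stand apart, so their p-values leave out its spread. Over all tested genes, edgeR called 2523 genes higher in the TranspExer group and 2361 lower, so that 51.7% of calls were higher. This share was 41.4% with upper-quartile normalization and 40.5% with scaling by library size only, which moved the median of all genes by -0.08 and -0.09 on the log2 scale. In bulk RNA, fewer cells of a type and less RNA per cell cannot be told apart.

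*Fos*, *Fosl1* and *Jun* were higher in the TranspExer group, by 1.61-fold, 1.75-fold and 1.33-fold, and the other 7 genes did not pass the test. Thus 3 of the 10 genes were called higher at an adjusted p under 0.05, against 16.6% of all tested genes, and 0 were called lower, against 15.5% of all tested genes. For the count of 0, edgeR gave 1 gene (*Klf4*) at an unadjusted p under 0.05, while DESeq2 called 1 (3 at an unadjusted p under 0.05) and limma voom with sample quality weights called 3. None reached the fold change of 2 that the study added to define a DEG, in either direction, in edgeR, DESeq2 or voom, at an adjusted or an unadjusted p. All tested genes reached both thresholds in 3.5% (higher) and 5.28% (lower). The groups did not overlap for 4 genes that were higher (*Fos*, *Fosl1*, *Jun* and *Ier2*), against 27.2% of tested genes, and for 1 that was lower (*Klf4*), against 25.1%. With 10 genes these counts lie near the background shares, so they say nothing particular about the set, and the genes are described singly.

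**Figure D1:**
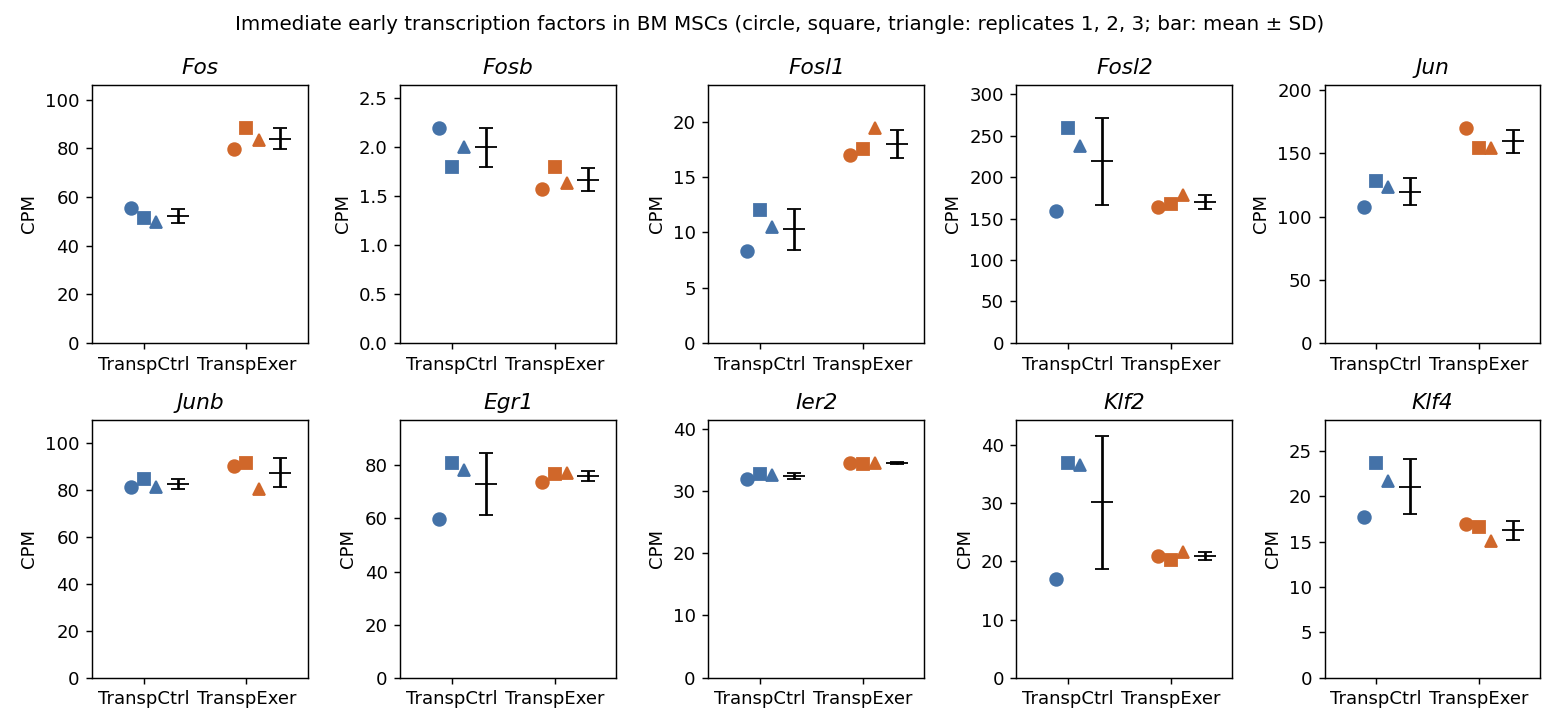
CPM of each gene in every sample of the TranspCtrl (blue) and TranspExer (orange) groups, each panel with its own axis from 0, with the group mean ± SD (n = 3) as a black bar beside the points. The groups were apart for *Fos*, *Fosl1* and *Jun*, and the circle of TranspCtrl replicate 1 lay far below the other controls for *Fosl2*, *Egr1* and *Klf2*.

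*Fos* encodes the inducible partner of JUN in AP-1 and is needed for osteoclasts to form. It stood at 55.4, 51.3 and 49.8 CPM in the controls, from 1134, 1000 and 1070 counts. It stood at 79.8, 88.3 and 83.6 CPM in the TranspExer samples, from 1526, 1520 and 1682 counts. The lowest TranspExer sample lay well above the highest control, and the samples of each group lay close together. The means were 52.2 ± 2.90 and 83.9 ± 4.27 CPM (SD, n = 3 each), a log2 fold change of 0.69 (SE 0.08, 95% interval 0.50 to 0.87, edgeR adjusted p = 0.000683). *Fos* was the one gene of the 3 called higher for which TranspCtrl replicate 1 was the highest control, and without that sample the log2 fold change was 0.73. The gene lies at chr12:85473890-85477273 on the plus strand of GRCm38 (mm10), the build of all positions given here.

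The stretch before the *Fos* start site is where CREB and ATF proteins and the general transcription machinery bind, and it is shown because *Fos* was the gene with the smallest p of the 10. The sequences here and below are from a set of RefSeq promoters (GRCm38.p6) and cover at most 250 bases before the RefSeq start. The set used here held 7 of the 10 genes, which does not mean that RefSeq lacks the others. Capitals mark matches to TGACG (the core of the CRE), GCGGGGGCG (the EGR site), TGANTCA (the AP-1 site), TGACATCA (an AP-1-like site), the CArG box of SRF, all searched on both strands, and TATAA on the printed strand. The *Fos* stretch, chr12:85473640-85473889, plus strand, reads 5′ to 3′:
Fos: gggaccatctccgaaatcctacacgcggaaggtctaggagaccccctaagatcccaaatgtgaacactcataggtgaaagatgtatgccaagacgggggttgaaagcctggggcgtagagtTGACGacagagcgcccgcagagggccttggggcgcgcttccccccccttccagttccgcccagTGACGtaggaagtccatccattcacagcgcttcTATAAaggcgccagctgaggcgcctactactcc

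In the *Fos* stretch, TGACG stood 129 to 125 and 66 to 62 bases before the start and TATAA 33 to 29 bases before it. TGACG was in 5 of the 7 genes' windows and in 17.8% of 32851 promoters of the same length. TATAA was in 3 of the 7 and in 16.0% of all. The AP-1 site was in 0 of the 7 and in 6.75% of all, and the CArG box in 0 of the 7 and in 1.47% of all. The CArG box known to control *Fos* lies farther upstream than the window. These are matches of letters in a short window and no measure of binding.

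*Fosl1* encodes FRA-1, a FOS relative without the strong activation domain, known to promote bone matrix formation. It stood at 8.30, 12.01 and 10.5 CPM in the controls and at 17.0, 17.6 and 19.4 CPM in the TranspExer samples. Every TranspExer sample lay above every control. The means were 10.3 ± 1.86 and 17.99 ± 1.27 CPM, a log2 fold change of 0.81 (SE 0.15, 95% interval 0.48 to 1.15, adjusted p = 0.004975), the largest of the 10 genes in size with all 6 samples. Without TranspCtrl replicate 1 it was 0.68 (adjusted p = 0.000244), smaller in size than those of *Fos* and *Klf2*. *Fosl1* (chr19:5447547-5455946, plus strand) shares 2767 bases with *Ccdc85b* on the other strand. Whether reads were counted by strand was not given in the sources used here, and the *Fosl1* counts were not whole in 6 of 6 samples, so some of its reads may have been shared out. *Ccdc85b* was not called, with a log2 fold change of -0.31 (adjusted p = 0.258).

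*Fosl2* (chr5:32135801-32157842, plus strand) encodes FRA-2, which is present in growing and resting osteoblasts and chondrocytes. It stood at 159, 259 and 238 CPM in the controls and at 163, 168 and 179 CPM in the TranspExer samples. TranspCtrl replicate 1 lay below all TranspExer samples and the other controls above all of them. The log2 fold change was -0.36 (SE 0.17, 95% interval -0.75 to 0.02, adjusted p = 0.128). Without TranspCtrl replicate 1 it was -0.55, a level 1.46-fold lower in the TranspExer group (adjusted p = 9.37e-06). *Fosb* (chr7:19302696-19310051, minus strand), whose short form is known to raise bone formation in transgenic mice, was the least abundant, with 30 to 45 counts in each sample. It stood at 2.00 ± 0.200 CPM in the TranspCtrl group and 1.67 ± 0.119 CPM in the TranspExer group (log2 fold change -0.26, SE 0.20, 95% interval -0.73 to 0.21, adjusted p = 0.355). The CV of *Fosb* was 10.02% among controls and 7.13% among TranspExer samples, below the 15.6% and 17.9% that counting error alone would give. The interval of *Fosb* leaves out a rise of the size fitted for *Fos* but holds a fall of that size.

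Since *Fos* was called higher and *Fosl2* was not, the make-up of the family was compared per length (CPM per kilobase of the length in the deposited table). *Fos* held 47.2%, 34.3% and 35.7% of the family in the controls and 52.3%, 54.1% and 50.9% in the TranspExer samples. *Fosl2* held 43.8%, 55.9% and 55.0% in the controls and 34.5%, 33.2% and 35.2% in the TranspExer samples. Thus *Fos* held the largest share in all 3 TranspExer samples, and *Fosl2* did in TranspCtrl replicates 2 and 3. *Fosl1* held 8.52% ± 0.544 of the family in the TranspCtrl group and 12.7% ± 0.623 in the TranspExer group (SD, n = 3), and *Fosb* held at most 1.04% in any sample. The log2 ratio of *Fos* to *Fosl2* was 0.11, -0.70 and -0.63 in the controls and 0.60, 0.71 and 0.53 in the TranspExer samples. The ratio and the shares restate the levels of genes picked for their calls, and the shares add up to the whole, so they are a description with no test.

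**Figure D2:**
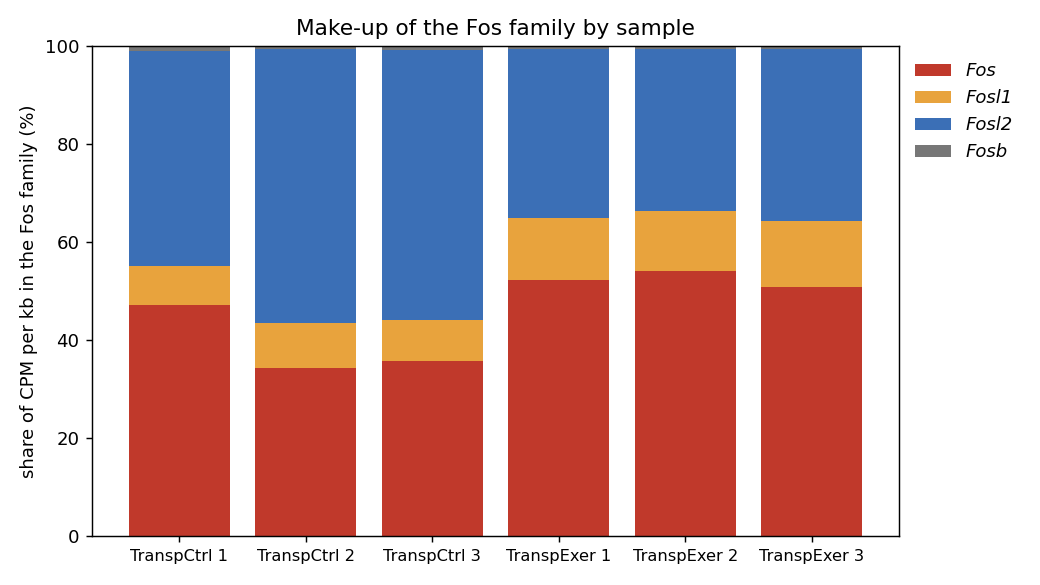
Share of each gene in the summed CPM per kilobase of the 4 *Fos* family genes, as a stacked bar from 0 to 100% for each sample. *Fos* (red) made up more than 50% in each TranspExer sample and *Fosl2* (blue) more than 50% in TranspCtrl replicates 2 and 3.

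*Jun* encodes c-JUN, the AP-1 subunit that JNK phosphorylates. It stood at 108, 128 and 124 CPM in the controls and at 170, 154 and 154 CPM in the TranspExer samples. The groups did not overlap, and the gap between the nearest samples was wider than the range within either group. The means were 120 ± 10.8 and 160 ± 9.08 CPM, a log2 fold change of 0.41 (SE 0.09, 95% interval 0.20 to 0.63, adjusted p = 0.0121). Without TranspExer replicate 1, the highest sample, the log2 fold change was 0.36 and the adjusted p was 0.0523. *Jun* lies at chr4:95049034-95052222 on the minus strand and shares 689 bases with the antisense gene *Junos*, which had 33 to 66 counts in a sample, few beside the 2205 to 3253 of *Jun*. The stretch before its start, chr4:95052223-95052472, minus strand, is shown for the AP-1-like site through which c-JUN is known to act on its own gene:
Jun: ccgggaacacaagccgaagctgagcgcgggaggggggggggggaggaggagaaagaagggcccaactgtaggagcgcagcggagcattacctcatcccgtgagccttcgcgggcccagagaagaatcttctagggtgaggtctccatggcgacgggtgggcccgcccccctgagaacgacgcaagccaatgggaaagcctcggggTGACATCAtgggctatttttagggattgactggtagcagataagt

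In the *Jun* stretch, the match to TGACATCA stood 45 to 38 bases before the start, and no other motif was matched. TGACATCA was in 1 of the 7 genes' windows and in 2.93% of the 32851 promoters. *Junb* (chr8:84974484-84978718, minus strand), which often replaces c-JUN as the partner of FOS and restrains growth, stood at 81.4, 84.9 and 81.4 CPM in the controls and at 90.1, 91.7 and 80.5 CPM in the TranspExer samples. The lowest of the 6 samples was a TranspExer sample, so the groups overlapped. The log2 fold change of *Junb* was 0.08 (SE 0.08, 95% interval -0.10 to 0.26, adjusted p = 0.448), near 0 under scaling by library size only, with an interval that leaves out the fitted value of *Jun*. *Junb* shares 351 bases with *Prdx2* on the other strand, which had 1584 to 2750 counts in a sample and was called lower (log2 fold change -0.38, adjusted p = 0.0127), and how much the shared bases add to the *Junb* counts was not tested. *Jund*, the JUN relative that most cells hold at rest, ran from 983 counts in TranspCtrl replicate 1 to 3180 in TranspCtrl replicate 3, and its log2 fold change was 0.03 (adjusted p = 0.949), or -0.32 without that low control (adjusted p = 0.0238). Per length, *Jun* held 26.0% ± 4.76 of the *Jun* family in the TranspCtrl group and 30.3% ± 1.72 in the TranspExer group, and the groups overlapped.

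*Egr1* encodes a zinc finger factor that reads out ERK and SRF activity. It stood at 59.6, 81.0 and 78.3 CPM in the controls and at 73.8, 76.7 and 77.2 CPM in the TranspExer samples. The TranspExer samples lay between the low control and the other controls, and the log2 fold change was 0.06 (SE 0.12, 95% interval -0.21 to 0.33, adjusted p = 0.735). Without TranspCtrl replicate 1 it was -0.07 (adjusted p = 0.331), so the direction turned with that sample, as it did with upper-quartile normalization or scaling by library size only. *Ier2* (chr8:84661331-84662852, minus strand), a small nuclear immediate early protein, was the steadiest of the 10 genes. It stood at 31.9, 32.8 and 32.5 CPM in the controls and at 34.6, 34.3 and 34.6 CPM in the TranspExer samples. The groups did not overlap, but the distance was small, with a log2 fold change of 0.09 (SE 0.07, 95% interval -0.07 to 0.25, adjusted p = 0.360). The CV of *Ier2* was 1.38% and 0.383%, less than the 3.88% and 3.92% expected from counting error, so the absence of overlap rests on a spread smaller than counting alone would give. *Fos*, which shares the ERK and SRF input with both genes, had an interval (0.50 to 0.87) above those of *Egr1* and *Ier2*.

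*Klf2* encodes a factor known for keeping endothelial cells and lymphocytes quiescent. It stood at 16.9, 37.0 and 36.5 CPM in the controls, from 346, 720 and 786 counts, and at 20.98, 20.3 and 21.6 CPM in the TranspExer samples, from 401, 349 and 434 counts. The controls lay on both sides of the TranspExer samples: replicates 2 and 3 above them all, and replicate 1 below them all. The log2 fold change was -0.52 (SE 0.26, 95% interval -1.13 to 0.08, adjusted p = 0.161). It was -0.81 (SE 0.07) without TranspCtrl replicate 1, a level 1.75-fold lower (adjusted p = 1.68e-06). That fit had only TranspCtrl replicates 2 and 3 as controls, which lay close together. The CV of *Klf2* was 38.1% among controls, against 4.02% expected from counting error, and 3.05% among TranspExer samples. *Klf2* lies at chr8:72319033-72321656 on the plus strand.

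*Klf4* encodes a relative of KLF2 that acts in monocytes, endothelium and epithelium and is known as a reprogramming factor. It stood at 17.7, 23.7 and 21.7 CPM in the controls and at 17.0, 16.6 and 15.1 CPM in the TranspExer samples. All TranspExer samples lay below all controls, TranspCtrl replicate 1 only narrowly above them. The means were 21.1 ± 3.05 and 16.2 ± 1.01 CPM, a log2 fold change of -0.37 (SE 0.13, 95% interval -0.66 to -0.08), and the adjusted p was 0.0533 with edgeR and 0.0466 with DESeq2. Without TranspCtrl replicate 1 the log2 fold change was -0.49 (adjusted p = 0.000971). *Klf4* lies at chr4:55527143-55532466 on the minus strand. The stretches before the starts of *Klf2* (chr8:72318812-72319032, plus strand, ending where the GENCODE gene begins) and *Klf4* (chr4:55532476-55532725, minus strand) are shown because both genes were lower in every TranspExer sample than in TranspCtrl replicates 2 and 3:
Klf2: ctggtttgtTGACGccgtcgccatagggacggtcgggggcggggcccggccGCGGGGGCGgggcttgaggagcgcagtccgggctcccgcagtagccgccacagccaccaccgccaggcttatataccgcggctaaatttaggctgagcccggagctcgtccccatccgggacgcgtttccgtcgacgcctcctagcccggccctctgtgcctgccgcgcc
Klf4: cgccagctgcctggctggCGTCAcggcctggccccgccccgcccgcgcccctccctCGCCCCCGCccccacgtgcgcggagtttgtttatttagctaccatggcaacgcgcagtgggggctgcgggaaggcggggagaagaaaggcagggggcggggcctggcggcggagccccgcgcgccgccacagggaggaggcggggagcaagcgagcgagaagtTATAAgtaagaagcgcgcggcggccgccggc

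Both KLF stretches held a TGACG match and an EGR site, and in *Klf4* both read as their reverse complements. The EGR site stood 199 to 191 bases before the RefSeq start of *Klf2* and 194 to 186 bases before that of *Klf4*. TGACG stood 241 to 237 bases before the start of *Klf2* and 232 to 228 bases before that of *Klf4*, and the order of the sites was thus the same in both. TATAA stood 31 to 27 bases before the start of *Klf4*. The TATAA match of *Klf2* lay in the bases after the GENCODE start and is not shown. The EGR site was in 4 of the 7 genes' windows (*Fosb*, *Fosl2*, *Klf2* and *Klf4*) and in 2.57% of the 32851 promoters.

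**Figure D3:**
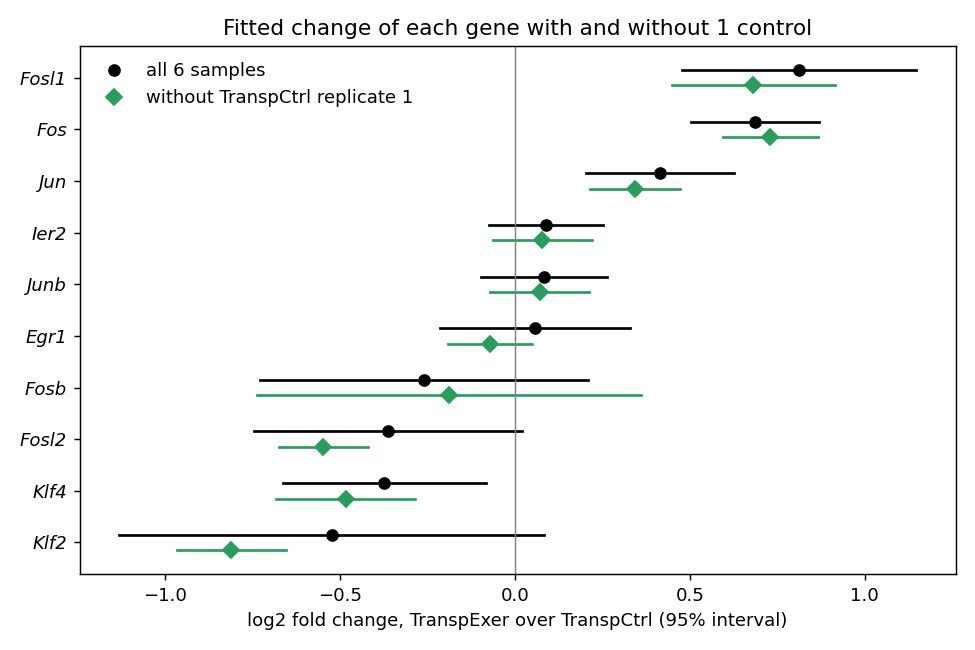
Log2 fold change of each gene (TranspExer over TranspCtrl) with its 95% interval from edgeR, with all 6 samples (black circles) and without TranspCtrl replicate 1 (green diamonds). The intervals of *Fosl1*, *Fos* and *Jun* lay above 0 in both fits, and those of *Fosl2* and *Klf2* moved wholly below 0 without that sample.

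The calls of *Fosl2* and *Klf2* changed when TranspCtrl replicate 1 was left out. With all 6 samples, *Klf2* was called only by voom with sample quality weights and *Fosl2* by voom and with scaling by library size only (adjusted p = 0.0489). *Klf4* was close to the threshold and was called with all 6 samples by DESeq2, voom, the other scalings and the other filters, with adjusted p from 0.000741 to 0.0466. Without TranspCtrl replicate 1, edgeR tested 15494 genes and called 3 of the 10 higher (*Fos*, *Fosl1* and *Jun*), against 22.1% of tested genes, and 3 lower (*Fosl2*, *Klf2* and *Klf4*), against 19.6% of tested genes. On the log2 scale, TranspCtrl replicate 1 differed from the mean of the other controls by -1.12 for *Klf2*, -0.64 for *Fosl2*, -0.43 for *Fosl1*, -0.42 for *Egr1* and -0.35 for *Klf4*. It lay above them for *Fos* (0.13) and *Fosb* (0.20). It was the lowest control for 7 of the 10 genes and for 45.1% of all tested genes, whereas TranspCtrl replicate 2 was the highest control for 8 of the 10 and for 32.97% of all tested genes. The SD of log2 CPM was wider in the TranspCtrl group for 9 of the 10 genes, *Junb* being the exception, and for 69.3% of all tested genes. Its median over the 10 genes was 0.18 in the TranspCtrl group and 0.08 in the TranspExer group, beside 0.19 and 0.10 over all tested genes.

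Per length, the order of the levels also differed between groups. In the TranspCtrl group the means were 45.6 CPM per kilobase for *Junb*, 37.6 for *Jun*, 33.5 for *Fosl2*, 24.7 for *Fos* and 24.0 for *Egr1*. In the TranspExer group they were 50.1 CPM per kilobase for *Jun*, 48.3 for *Junb*, 39.8 for *Fos*, 26.0 for *Fosl2* and 25.0 for *Egr1*. The ranges of neighbours overlapped between *Jun* and *Fosl2*, *Fosl2* and *Fos*, *Fos* and *Egr1*, and *Egr1* and *Ier2* among controls, so their order there was not separated by the spread. Among TranspExer samples they overlapped between *Jun* and *Junb* and between *Fosl2* and *Egr1*. *Ier2*, *Klf2*, *Klf4*, *Fosl1* and *Fosb* filled the lower places, with *Ier2* sixth, *Klf2* seventh and *Fosb* last in both groups, at 0.528 CPM per kilobase in the TranspCtrl group and 0.442 in the TranspExer group. *Klf4* and *Fosl1* changed places, and their ranges overlapped among controls.

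The genes whose pattern over the 6 samples was most like that of *Fos* were *Galns*, *Srrt* and *Pea15a*, with Pearson correlations of log2 CPM of 0.999, 0.998 and 0.997. *Galns* stood at 55.0, 50.6 and 50.2 CPM in the controls and at 74.1, 81.0 and 77.5 CPM in the TranspExer samples. Such likeness was common, since 612 tested genes had a correlation above 0.95 with *Fos*, and the points fall into the 2 groups. The genes most like *Klf2* were *Robo1* (0.9996), *Enah* (0.995) and *Pck2* (0.994), among 118 genes above 0.95. *Robo1* stood at 11.5, 19.4 and 19.3 CPM in the controls and at 13.1, 13.0 and 13.6 CPM in the TranspExer samples, low in the same control as *Klf2*. These values describe 6 libraries that share their preparation and were not tested.

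Among 13 tested AP-1 relatives, 5 rose in the TranspExer group and 0 fell, and the median log2 fold change was 0.23 beside -0.02 for all tested genes. Of all tested genes, 16.6% were called higher and 15.5% lower, the shares to set beside this and each list count below. Without TranspCtrl replicate 1 these shares were 22.1% and 19.6%. No list was tested as a set. *Atf3*, a stress-induced AP-1 partner, rose from 35.1 ± 2.60 to 96.2 ± 2.36 CPM (log2 fold change 1.45, adjusted p = 4.26e-05). *Batf3*, *Mafg* and *Mafk* were also higher, with log2 fold changes of 0.96, 0.33 and 0.47. Without TranspExer replicate 2 the count of higher genes was 3, and without TranspCtrl replicate 1 it was 5 with 1 lower. *Atf3* was thus a DEG while none of the 10 genes were.

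Of 28 tested other immediate early genes, 11 were higher, 4 were lower and 13 did not pass, with a median log2 fold change of 0.29, and *Egr4* was listed at 0 in all samples. *Ier3*, an inhibitor of stress-induced cell death, was the one DEG and fell by 1.02 on the log2 scale, from 32.9 ± 11.1 to 16.3 ± 1.42 CPM (adjusted p = 0.0105). *Ier3* was 1.63-fold lower without TranspCtrl replicate 1 and still called, so it was no longer a DEG, whereas *Nr4a2* was 2.02-fold lower and was one. *Nr4a2*, an orphan nuclear receptor, *Btg2*, an antiproliferative gene, and *Ptgs2*, which encodes COX-2, were also lower, with log2 fold changes of -0.78, -0.68 and -0.88. Among those higher were *Egr2* (0.84, adjusted p = 0.000602), *Dusp1*, a phosphatase of JNK and p38 (0.74, adjusted p = 0.000792), and *Zfp36*, which marks AU-rich mRNAs for decay (0.54, adjusted p = 0.00280). The count of higher genes was 14 without TranspCtrl replicate 1 and 7, 6 and 7 without TranspExer replicates 1, 2 and 3. The count of lower genes was 2 without TranspExer replicate 3. Called immediate early genes outside the 10 thus went both ways.

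The kinases and factors upstream were given by list, beside 16.6% of all tested genes called higher and 15.5% called lower. In the ERK and SRF pathway, 6 of 16 tested genes were higher and 0 lower (median log2 fold change 0.30), among them *Srf* itself (0.53, adjusted p = 0.00849), its coactivator *Mrtfa* (0.72, adjusted p = 0.00428) and the kinase *Mapk3* (0.43, adjusted p = 0.00535). In the JNK and p38 pathway, 3 of 13 were higher and 1 lower (median 0.20): the p38 kinase *Mapk14* (0.40), its activator *Map2k3* (0.76) and its substrate *Mapkapk2* (0.55) were higher, and the JNK gene *Mapk8* was lower (-0.46). With voom weights the JNK and p38 counts were 5 higher and 2 lower. Without TranspExer replicate 3 the count of higher genes was 1, and *Mapk8* was not called without TranspCtrl replicate 2 or any 1 TranspExer replicate. In the ERK5 pathway, which feeds *Klf2* and *Klf4*, 2 of 7 were higher and 0 lower (median 0.12), namely the ERK5 gene *Mapk7* (0.47) and *Mef2d* (0.49), and 1 was higher without any 1 TranspExer replicate, and 1 was lower without TranspCtrl replicate 1. These are RNA levels of the kinases and carry no measure of their activity.

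Of 14 ERK feedback regulators, which damp the signal that induces these genes, 4 were higher and 2 lower (median log2 fold change 0.32). *Spry4* and *Spry2*, inhibitors of receptor tyrosine kinase signaling, were DEGs. *Spry4* rose from 8.60 ± 2.98 to 27.0 ± 2.49 CPM (log2 fold change 1.65, adjusted p = 0.00170) and *Spry2* from 10.1 ± 3.04 to 24.0 ± 1.49 CPM (1.25, adjusted p = 0.00348). *Spred2* (0.61) and *Nab1* (0.27), a corepressor of EGR proteins, were also higher, and *Dusp4* (-0.71) and *Errfi1* (-0.37) were lower. The count of higher genes was 7 with voom weights or without TranspCtrl replicate 1 and 2 without any 1 TranspExer replicate.

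**Figure D4:**
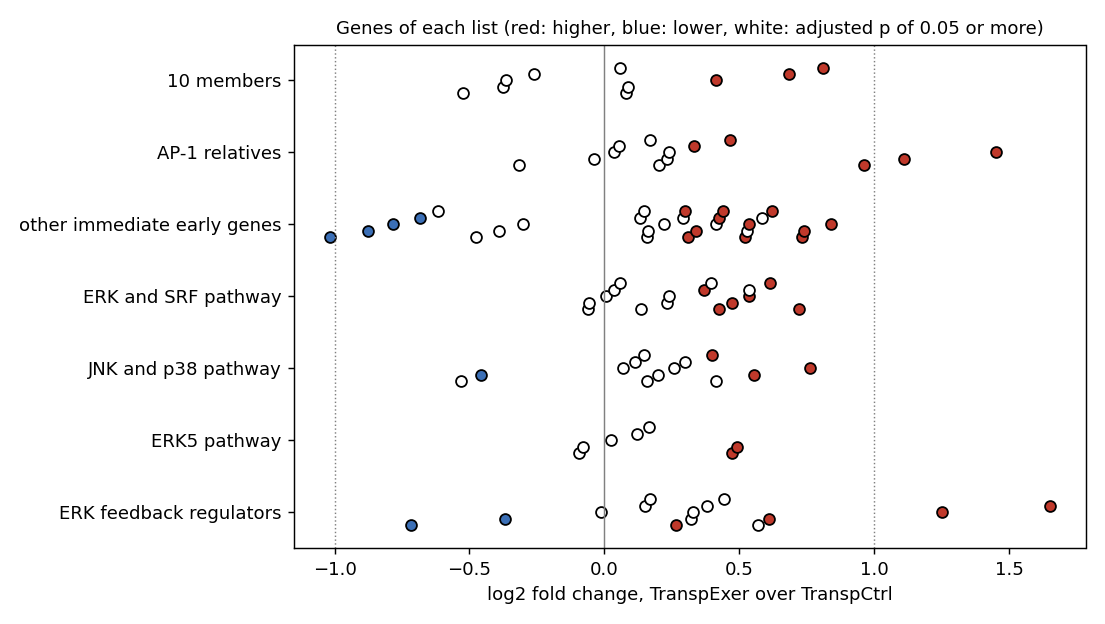
Log2 fold change (TranspExer over TranspCtrl) of each tested gene in 7 lists, red for genes called higher, blue for genes called lower and white for genes that did not pass edgeR's test, with dotted lines at a fold change of 2 in either direction. The 10 genes lay within the dotted lines, and *Atf3*, *Spry2*, *Spry4* and *Ier3* were among those beyond them.

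Known targets of the 10 genes went both ways. Of 13 tested AP-1 targets, 5 were higher (among them *Plau*, *Plaur*, *Ccnd1* and *Hmox1*) and 5 lower (*Mmp9*, *Mmp13*, *Timp1*, *Ccl2* and *Lif*), with a median log2 fold change of -0.02. The DEGs among them were *Mmp9*, a gelatinase, which fell from 303 ± 63.7 to 56.6 ± 2.95 CPM (-2.42, adjusted p = 6.5e-05), and the chemokine *Ccl2*, which fell from 59.6 ± 18.6 to 28.4 ± 2.97 CPM (-1.07, adjusted p = 0.00666). *Ccl2* was 1.74-fold lower without TranspCtrl replicate 1 and still called, but no DEG. The higher count was 3 with upper-quartile normalization or library size only, and 2 without TranspCtrl replicate 3 or any 1 TranspExer replicate. Of 7 EGR1 targets, 3 were higher and 1 lower (median 0.35), although *Egr1* itself was not called: *Pdgfb* (1.73, adjusted p = 0.000302), *Tgfb1* (1.34, adjusted p = 0.00836) and *Fgf2* (0.63) were higher, and *F3*, tissue factor, was lower (-2.01, adjusted p = 0.000138). The higher count of EGR1 targets was 2 without TranspCtrl replicate 2 or 3 or TranspExer replicate 2 or 3.

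Of 8 KLF2 and KLF4 targets, 4 were higher and 1 lower (median log2 fold change 0.24). *Nos3*, the endothelial nitric oxide synthase, rose from 6.44 ± 1.21 to 13.8 ± 0.734 CPM (1.10, adjusted p = 0.00140, and 1.997-fold and so no DEG without TranspCtrl replicate 1), and *Thbd* (0.59), *Tek* (0.69) and *Itgb7* (0.34) were also higher. *Aqp1*, a water channel, fell from 11.4 ± 0.745 to 5.22 ± 0.619 CPM (-1.13, adjusted p = 0.000735). The log2 fold changes of *Klf2* and *Klf4* in the same fit were negative and not called. *Tek* also stood in the endothelial marker list, and *Nab2* stood in both the ERK feedback regulators and the EGR1 targets. Of 12 tested other KLF genes, 2 were higher, *Klf6* (0.30) and *Klf13* (0.72), and 0 lower (median 0.17), with *Klf14* and *Klf17* listed at 0. *Klf6* and *Klf10* were also counted among the other immediate early genes, and *Klf3* among the KLF2 and KLF4 targets. With all 6 samples the count of higher other KLF genes was 4 with DESeq2, without a low-count filter or with the replicate block, 5 with 1 lower with voom weights, and 1 with library size only. It was 5 with 1 lower without TranspCtrl replicate 1, 4 without TranspCtrl replicate 2 and 0 without any 1 TranspExer replicate.

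As a gauge of handling stress, which also raises immediate early genes, 14 heat shock genes were read out. Of these, 4 were higher (*Hsph1*, *Dnajb4*, *Bag3* and *Hsf1*) and 2 lower, with a median log2 fold change of 0.04. The inducible *Hspa1a* and *Hspa1b* were the lower ones, with log2 fold changes of -0.60 (adjusted p = 0.0218) and -0.36 (adjusted p = 0.0402). Near-identical, these 2 genes share reads, so their counts are uncertain. The count of lower genes was 4 with voom weights, 3 without TranspCtrl replicate 1, 1 without TranspCtrl replicate 2 or 3 and 0 without any 1 TranspExer replicate, and the count of higher genes was 2 without TranspExer replicate 2. The part of handling in the levels of *Fos*, *Fosl1* and *Jun* was not tested.

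Markers of several cell types also differed between the samples. Of 12 stromal markers, 3 were higher and 7 lower (median log2 fold change -0.46), and their summed level was 14684 CPM in TranspCtrl replicate 1, 22940 and 21991 CPM in replicates 2 and 3, and 14222 to 15524 CPM in the TranspExer group. Most of this sum came from *Col1a1* and *Col1a2*, and *Col1a1* was lower in TranspCtrl replicate 1 than in any other sample. The other 10 stromal markers summed to 4989, 5639 and 5349 CPM in the controls and to 3357 to 3433 CPM in the TranspExer group, and *Col3a1* made up most of that sum in the controls. *Pdgfra* (108, 116 and 112 CPM) and *Col3a1* (2857, 3242 and 3034 CPM) were at like levels in the controls, whereas *Col1a2* (5132, 7350 and 7029 CPM), *Prrx1* (168, 232 and 216 CPM), *Eng* (38.3, 60.5 and 56.6 CPM) and *Pdgfrb* (179, 223 and 207 CPM) were lower in replicate 1 than in the others. Of 9 endothelial markers, 9 were higher (median 1.55), and their sum was 197 to 246 CPM in the TranspCtrl group and 675 to 725 CPM in the TranspExer group, without overlap. Of 9 macrophage markers, 2 were higher and 2 lower (median 0.07, with 1 higher under the other scalings or a filter at a mean of 1 CPM), and their sum was 12677 CPM in TranspCtrl replicate 1, 8391 and 8617 CPM in the other controls and 6517 to 7000 CPM in the TranspExer group. *Lyz2* alone set this order, since the other 8 macrophage markers summed to 3380 to 3575 CPM in the TranspCtrl group and to 3765 to 3921 CPM in the TranspExer group. Without TranspCtrl replicate 1, 3 stromal, 9 endothelial and 3 macrophage markers were higher, and 9 stromal, 0 endothelial and 2 macrophage markers lower. The part of cell type in the levels of the 10 genes was not tested.

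Markers of other blood cells were also read out, and the genes set apart from a sum, here and above, were chosen after their values were seen. B and plasma cell markers, with 0 of 8 higher and 7 lower (median log2 fold change -1.44), summed to 5958 CPM in TranspCtrl replicate 1, 3450 and 3671 CPM in the other controls and 582 to 631 CPM in the TranspExer group. Neutrophil markers, with 2 of 8 higher and 2 lower (median 0.00), summed to 1883 to 2828 CPM and 3426 to 3695 CPM in the TranspCtrl and TranspExer groups, with 4 higher and 1 lower without TranspCtrl replicate 1. The difference between the group sums came from *Mpo* and *Elane*, genes of early granulocytes, which summed to 225 to 376 CPM and 1573 to 1723 CPM and were called higher. The other 6 neutrophil markers summed to 1542 to 2603 CPM and 1828 to 2121 CPM, and *Ly6g* and *Cxcr2* were called lower, *Ly6g* not without that control, and 1 of the 8 was lower with DESeq2, without a low-count filter or with the replicate block. T and NK cell markers, with 2 of 8 higher and 1 lower (median -0.14), summed to 58.4 to 60.3 CPM and 77.5 to 83.6 CPM, with 2 lower without TranspCtrl replicate 1 or with voom weights and 0 with a filter at a mean of 1 CPM. *Cd4* and *Nkg7*, the markers called higher, made up most of this sum, while the other 6 summed to 9.18 to 12.4 CPM and 7.497 to 9.04 CPM, and *Cd3d*, a subunit of the T cell receptor complex, was called lower (-1.83). Erythroid markers, 1 of 7 tested and higher, summed to 1.49 to 2.42 CPM and 4.37 to 5.18 CPM. Adipocyte markers, 2 of 5 tested and 1 higher (0 with that filter), summed to 0.781 to 1.02 CPM and 2.30 to 3.25 CPM, with *Lep* and *Retn* at 0 in all samples. The defining markers of stromal cells were well above the floor in every sample, and so were those of macrophages, with *Ptprc*, the pan-leukocyte marker, at 281 CPM in the TranspCtrl group and 294 CPM in the TranspExer group.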

How the data were processed

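RNA-Seq of BM MSCs was analysed in 3 TranspCtrl and 3 TranspExer samples, grouped by the sample labels. The authors deposited estimated counts per gene without normalization, of which 10.1% to 12.2% per sample were not whole. They were rounded. The submitters' processing notes name the build mm10, and the aligner, the counting tool, its strand setting and the test were not given in the sources used here. For the libraries, a stranded mRNA kit is named in the labels but a TruSeq kit in the paper. Gene positions came from GENCODE M21.

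Genes were filtered with filterByExpr, scaled by TMM and tested with the quasi-likelihood test of edgeR 4.0.16 in R 4.3.3, with Benjamini-Hochberg adjustment over 15190 genes. The thresholds were an adjusted p of 0.05 and, for DEGs, a fold change of 2. The SD of log2 CPM used a prior count of 2. The script was checked on simulated data.

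The 10 genes and the lists were chosen with earlier results of these data known. Named were the 10 genes, up to 4 DEGs per pathway list and direction, and the 3 genes most like *Fos* and *Klf2*. Other genes named from a list or as overlapping a gene were chosen after their values were seen. Some genes of the lists are counted but not reported by name here. Alternatives were DESeq2 1.42.0, limma 3.58.1 (voom with sample quality weights), other scalings and low-count filters, a mean of at least 1 CPM among them, a fold change of 2 tested in the model, the replicate number as a block, and each sample left out.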

Additional observations from a re-analysis of the deposited data

How the results depend on the processing

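The count of the 10 genes called higher, 3 with edgeR and TMM, was 3 under each other setting except for 2 to 3 with 1 sample left out, and 0 when a fold change of 2 was tested in the model. The count called lower, 0 with edgeR and TMM, was 1 with DESeq2, with upper-quartile normalization, without a filter on low counts and with a filter at a mean of 1 CPM. It was 2 with scaling by library size only, 3 with voom weights, and 0 to 3 with 1 sample left out, 3 arising without TranspCtrl replicate 1. Of the log2 fold changes of the 10 genes under other settings, 119 kept their direction and their side of the threshold, 12 gained the call, 4 lost it and 5 changed sign, none of them called. The latter were *Egr1*, at -0.0179 with upper-quartile normalization, -0.0248 with library size only, -0.0476 with voom weights and -0.0710 to 0.140 with 1 sample left out, and *Junb*, at -0.0039 with library size only. With the replicate number as a block (replicate block), 3 genes were higher and 0 lower. The deviations of same-numbered samples correlated at 0.02, -0.0017 and 0.04. With 3 samples per group, these values cannot show whether samples of the same number were paired. The block moved all calls from 2523 to 2484 higher and from 2361 to 2218 lower. The other KLF genes called higher went from 2 to 4. The cause of these differences was not tested. Counts of 30 to 45 limit *Fosb*.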
